A study of Homo sapiens with 83 samples.

Results

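Iron uptake, storage and sensing were followed through 10 genes, TFRC, SLC11A2, STEAP3, IREB2, ACO1, FTH1, FTL, NCOA4, SLC40A1 and HMOX1, taken by gene symbol from the 60237 entries of an expression table of human neuroblastoma cell lines. All 10 symbols were found. SHEP and SKNAS are established neuroblastoma lines, and both carried N-MYC-ER, a constitutively expressed fusion of N-MYC with the hormone-binding part of the estrogen receptor, which enters the nucleus when 4-hydroxytamoxifen (4OHT) is added. In MYC-ON the cells received 4OHT, and in MYC-OFF they received the ethanol vehicle. Every culture of both groups was afterwards given dexamethasone to set its molecular clock, and was collected at 4 h steps of CT, the hours since dexamethasone. SHEP had 28 MYC-OFF and 28 MYC-ON libraries, in 2 series from CT24 to CT76. SKNAS had 14 MYC-OFF libraries from CT24 to CT76 and 13 MYC-ON libraries from CT24 to CT72, in 1 series. N-MYC is here a fusion supplied in excess and not an amplified gene of these lines, which limits both as models of tumors. Levels are in TPM, a transcript's share of its library corrected for transcript length, so levels of different genes can be compared, but less RNA per cell and fewer cells carrying it cannot be told apart.

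Cells take up transferrin-bound iron through the transferrin receptor, encoded by TFRC. In the endosome STEAP3 reduces ferric to ferrous iron, and SLC11A2 (DMT1) carries it into the cytosol. Iron not in use is stored in ferritin, a shell of heavy chains (FTH1, which oxidise iron) and light chains (FTL, which help form the mineral core). NCOA4 delivers ferritin to lysosomes so that its iron is released, SLC40A1 (ferroportin) exports iron from the cell, and HMOX1 frees iron from heme. The sensors are the iron regulatory proteins IRP1, encoded by ACO1, and IRP2, encoded by IREB2. When iron is scarce they bind a hairpin called the iron-responsive element (IRE). In the 5′ untranslated region of ferritin transcripts this binding blocks translation, and in the 3′ untranslated region of TFRC it protects the transcript from decay. A change of transcript level is therefore only part of what sets the amount of ferritin.

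The hairpins are shown because they divide the members into those read at the 5′ end and those read at the 3′ end. Untranslated regions of the Gencode 44 annotation (build GRCh38) were searched on the transcript strand for CNNNNNCAGTGN with at least 4 of the 5 pairs that close the loop, G with T included. Each window of 29 bases is printed 5′ to 3′ as DNA, and the 6 loop bases are in capitals. Those with 5 of 5 pairs were in the 5′ untranslated regions of FTH1 (chr11:61967574-61967602, minus strand), FTL (chr19:48965335-48965363, plus strand) and SLC40A1 (chr2:189580661-189580689, minus strand), and 4 times in the 3′ untranslated region of TFRC (chr3:196050979-196051007, chr3:196050575-196050603, chr3:196050510-196050538 and chr3:196050463-196050491, minus strand).
FTH1: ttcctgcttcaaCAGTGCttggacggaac
FTL: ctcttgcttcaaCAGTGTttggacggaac
SLC40A1: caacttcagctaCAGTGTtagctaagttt
TFRC site 1: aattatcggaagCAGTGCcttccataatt
TFRC site 2: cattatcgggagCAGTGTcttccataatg
TFRC site 3: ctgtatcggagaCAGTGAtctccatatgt
TFRC site 4: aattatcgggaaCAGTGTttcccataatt
SLC11A2: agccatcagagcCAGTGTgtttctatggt

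The SLC11A2 window (chr12:50988269-50988297, minus strand, 3′ untranslated region) had 4 of 5 pairs, and 3′ windows with 4 of 5 pairs were also found in IREB2 and ACO1. Among all genes with an annotated region, 0.205% had a 5′ match with 5 pairs and 0.742% had such a 3′ match. With 4 or more pairs the shares were 1.51% and 5.15%, so a match of 4 pairs is a common feature. STEAP3, NCOA4 and HMOX1 had no match in these windows. EPAS1 and CDC42BPA, counted below among genes of IRP turnover or with a known hairpin, had no match either. A gene without a match may therefore still carry a hairpin. The E-box CACGTG, a motif that MYC proteins are known to bind, was in 0 of 13 RefSeq promoter windows of 8 members (GRCh38, 250 bases before to 50 after the start, both strands), against 7.26% of 35116 windows. FTH1 and HMOX1 had no promoter entry. At so low a background share, 0 of 13 windows does not set the members apart from other genes. Sites outside these short windows were not searched.

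TPM are shares of a fixed total in each library, so the depth of single libraries is unknown. The median gene level of a library, on the log2(TPM + 1) scale, lay between 3.93 and 4.17 in SHEP but between 2.76 and 4.38 in SKNAS. It was below 3.8 in 4 of 14 SKNAS MYC-OFF and in 10 of 13 SKNAS MYC-ON libraries, so SKNAS log2 changes as deposited are set beside those after rescaling or with the library median as a covariate. Endogenous MYC was at 7.42 to 17.7 TPM in SHEP MYC-OFF and 0.801 to 6.45 TPM in SHEP MYC-ON, and at 4.12 to 23.1 and 0.246 to 3.13 TPM in SKNAS. Its levels therefore separated the labelled conditions in both lines. Of 6 mesenchymal neuroblastoma markers 5 or 6 averaged at least 1 TPM in every group. Of 7 adrenergic markers 2 did so in SHEP and 4 in SKNAS, with TH and DBH under 1 TPM in all groups. Immune CD68 was found in both lines and PTPRC in SKNAS, at means of 80.4 TPM in MYC-OFF and 21.5 TPM in MYC-ON, while CD3E and CD14 were under 1 TPM. HBA1, a red cell gene, averaged 10.8 TPM in SKNAS MYC-ON, and its part in any result was not tested.

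In both lines TFRC and FTL were higher and STEAP3, FTH1 and NCOA4 were lower in MYC-ON. The ferritin chains thus moved in opposite directions, and the entry receptor and the endosomal reductase of the same uptake route did so too. Of the 9 members with a mean of at least 1 TPM, which all also reached that mean in each of the 4 groups, 5 passed the test in SHEP (2 higher, 3 lower) and 7 in SKNAS (2 higher, 5 lower). Genes passed where limma on log2(TPM + 1) gave an adjusted p no higher than 0.05 together with a log2 change of 0.15 or more either way. By that rule 71.9% of the 14362 genes tested in SHEP were called (33% higher, 38.9% lower) and 48.1% of 13886 in SKNAS (13.9% higher, 34.2% lower), so a count of members called is not in itself a result about them. The values below show which of them moved, in which direction and how far.

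**Figure D1:**
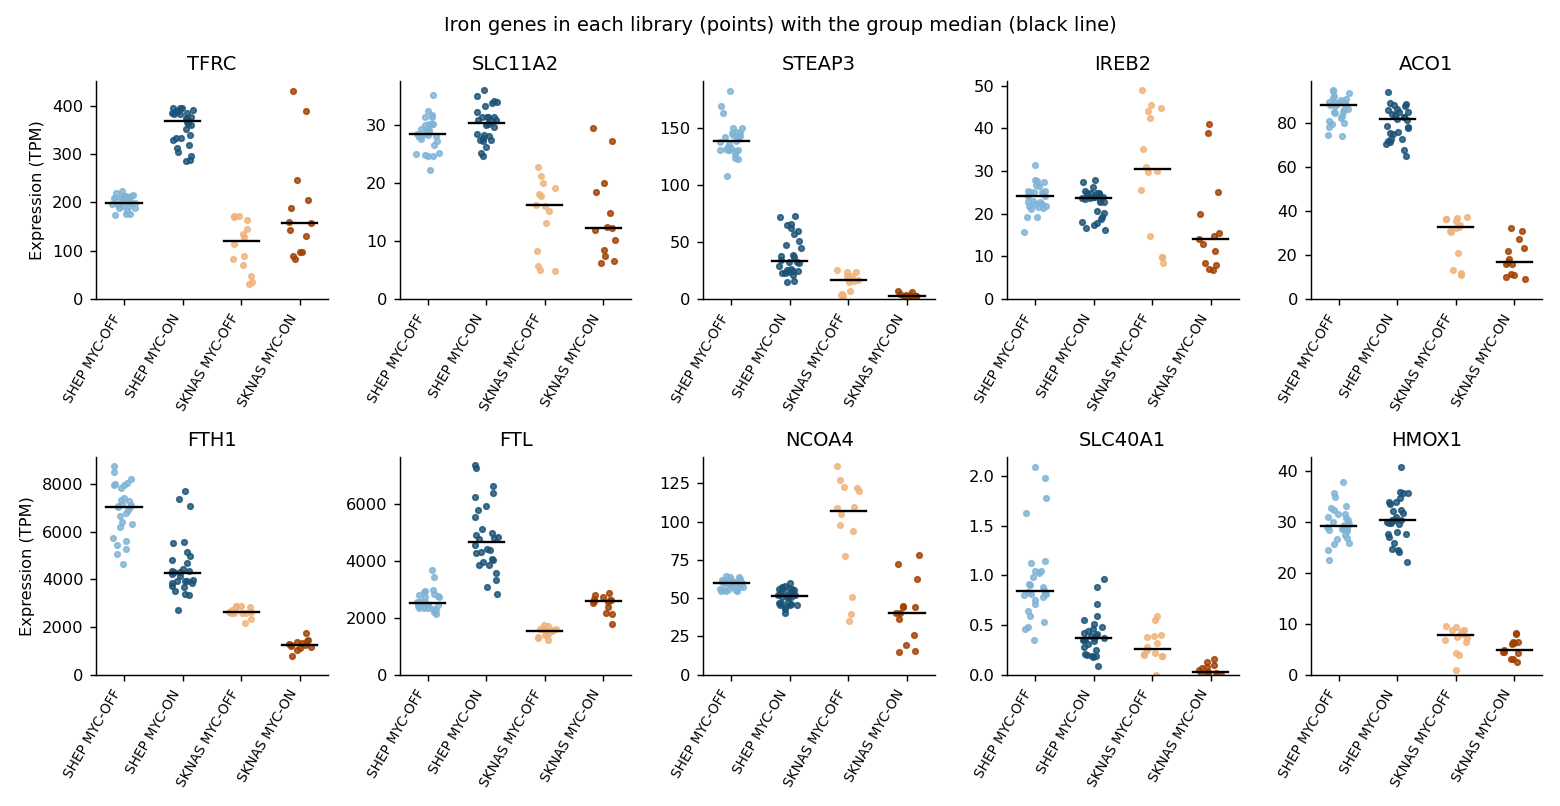
Expression (TPM, linear axes from 0) of the 10 iron genes in each of 83 libraries, by line and condition, with the group median as a black line. TFRC in SHEP and FTL in SKNAS stand wholly above their MYC-OFF libraries, and STEAP3 in SHEP and FTH1 in SKNAS stand wholly below.

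TFRC, the entry point of transferrin iron, was at 175 TPM in the lowest, 198 in the median and 223 in the highest of the 28 SHEP MYC-OFF libraries. In SHEP MYC-ON the same values were 286, 368 and 396 TPM. The groups did not overlap, and TFRC was higher in MYC-ON in 28 of 28 pairs of the same series and CT. The log2 change was 0.83 ± 0.03 (SE, adjusted p = 3.84e-27, limma). In SHEP 12.5% of the genes tested had groups that did not overlap, and TFRC and STEAP3 were the members among them.

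In SKNAS TFRC spread widely, from 30.5 through 120 to 172 TPM in MYC-OFF and from 83.4 through 156 to 431 TPM in MYC-ON. The groups overlapped, 5 MYC-ON libraries lay above the highest MYC-OFF library, and 8 of 13 pairs were higher in MYC-ON. The log2 change was 0.73 ± 0.27 (SE, adjusted p = 0.0338, limma). TFRC moved with the library median in SKNAS (Pearson r = 0.968 and Spearman rho = 0.979 over 27 libraries with condition means removed, which share their scaling). After rescaling the log2 change was 1.10 and with the library median as a covariate it was 1.40, past the test in both, while without a filter on low values, when more genes share the adjustment, the call was lost (adjusted p = 0.0808, limma). Among libraries with a median of at least 3.8, the 10 MYC-OFF libraries ran from 82.5 to 172 TPM and the 3 MYC-ON libraries were at 246, 389 and 431 TPM, with no overlap.

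STEAP3, the endosomal ferrireductase, had the largest change of the tested members in both lines as deposited. SHEP MYC-OFF libraries ran from 108 through 138 to 182 TPM and MYC-ON libraries from 14.7 through 33.2 to 72.2 TPM. The groups did not overlap and 28 of 28 pairs were lower. The log2 change was -1.94 ± 0.09 (SE, adjusted p = 9.68e-25, limma), a mean 3.59-fold higher in MYC-OFF. SKNAS held less of it, from 2.76 through 16.8 to 25.5 TPM in MYC-OFF and from 0.623 through 2.66 to 7.10 TPM in MYC-ON. All 13 pairs were lower, although the groups overlapped through the MYC-OFF libraries of low median. The log2 change in SKNAS was -1.83 ± 0.28 (SE, adjusted p = 7.58e-05, limma), and with the library median as a covariate it was -1.15. In the libraries of median at least 3.8 the change was -1.45 and missed the threshold (adjusted p = 0.0676, limma), while 14.4 TPM in the lowest MYC-OFF library stood above 7.10 TPM in the highest MYC-ON library.

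SLC11A2, the ferrous iron carrier, did not pass the test as deposited in either line. It ran from 22.2 through 28.5 to 35.1 TPM in SHEP MYC-OFF and from 24.7 through 30.4 to 35.98 TPM in MYC-ON. The groups overlapped, and the log2 change of 0.09 ± 0.04 (SE, 95% interval 0.01 to 0.16, adjusted p = 0.0294, limma) lay under the required 0.15. With the library median as a covariate it was 0.16 and passed (adjusted p = 0.00107, limma). In SKNAS it was at 4.78, 16.1 and 22.6 TPM in MYC-OFF and at 6.16, 12.2 and 29.4 TPM in MYC-ON. That change was -0.01 as deposited (95% interval -0.53 to 0.51), but 0.34 after rescaling and 0.59 with the covariate, both past the test. Its direction in SKNAS thus depended on how the library level was treated.

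FTH1, the ferroxidase chain of ferritin, was among the most abundant transcripts. In SHEP MYC-OFF the lowest, median and highest libraries held 4649, 7056 and 8748 TPM, and in MYC-ON 2732, 4264 and 7692 TPM. FTH1 was lower in MYC-ON in 27 of 28 pairs, the exception being series 2 at CT76 with 6791 TPM in MYC-OFF and 7385 TPM in MYC-ON. Series 1 at CT76 held 7948 TPM in MYC-OFF and 7692 TPM in MYC-ON. At that last time point the 2 conditions therefore overlapped, with means of 7369 TPM in MYC-OFF and 7539 TPM in MYC-ON. The log2 change was -0.64 ± 0.05 (SE, adjusted p = 7.80e-15, limma). In SKNAS FTH1 was at 2149, 2636 and 2898 TPM in MYC-OFF and at 770, 1243 and 1750 TPM in MYC-ON. These groups did not overlap, 13 of 13 pairs were lower, and the log2 change was -1.08 ± 0.09 (SE, adjusted p = 1.99e-07, limma). Unlike TFRC it did not rise with the library median in SKNAS (r = -0.369, rho = -0.429, 27 libraries). Its change was -0.71 after rescaling, -1.18 with the covariate and -1.17 in the libraries of median at least 3.8, past the test each time.

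FTL, the light chain, went the other way. SHEP MYC-OFF libraries ran from 2135 through 2523 to 3672 TPM and MYC-ON libraries from 2825 through 4671 to 7344 TPM. FTL was higher in 28 of 28 pairs and 24 MYC-ON libraries lay above every MYC-OFF library. The log2 change was 0.86 ± 0.07 (SE, adjusted p = 1.52e-14, limma). In SKNAS it was at 1220, 1546 and 1740 TPM in MYC-OFF and at 1771, 2568 and 2872 TPM in MYC-ON, with no overlap and 13 of 13 pairs higher. The log2 change was 0.70 ± 0.09 (SE, adjusted p = 1.33e-05, limma), and it was 1.08 after rescaling and 0.61 with the covariate, past the test both times. FTL in SKNAS and FTH1 in SKNAS were the members whose groups did not overlap there, as was so for 4.41% of all genes tested in that line. Among the SKNAS libraries of median at least 3.8 the FTL change was 0.39 and missed the threshold (adjusted p = 0.353, limma), with 1300 to 1740 TPM in 10 MYC-OFF and 1771 to 2155 TPM in 3 MYC-ON libraries.

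**Figure D2:**
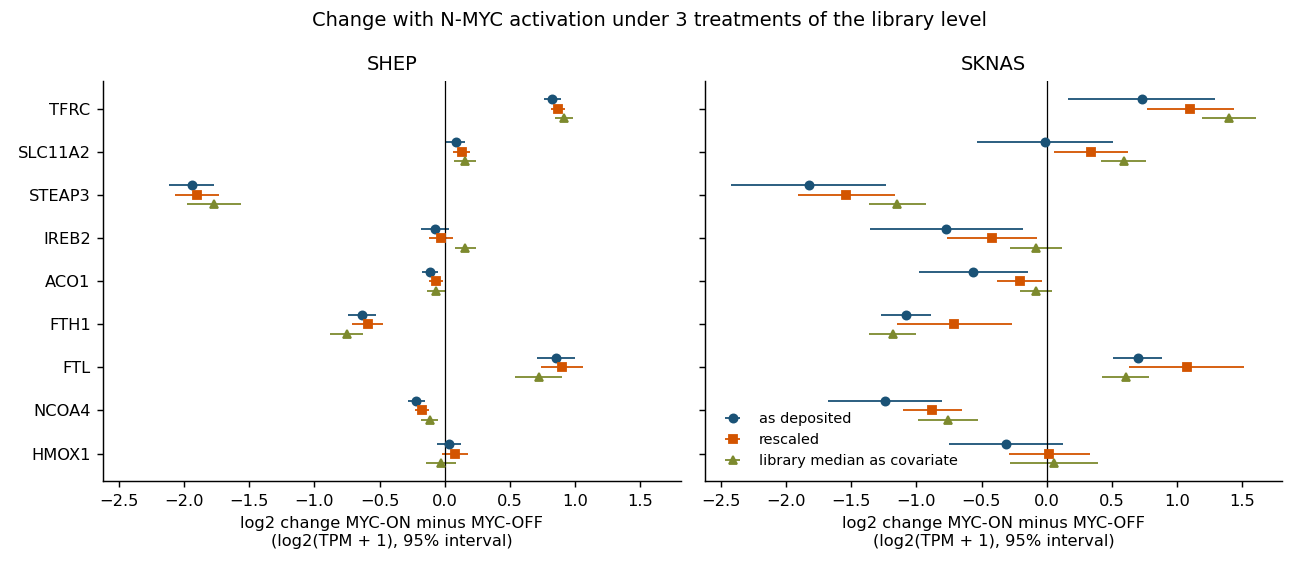
Log2 change from MYC-OFF to MYC-ON with its 95% interval (log2(TPM + 1), limma) for 9 iron genes in SHEP (left) and SKNAS (right), as deposited, after median-of-ratios rescaling, and with the library median as a covariate. TFRC and FTL lie above 0 and STEAP3, FTH1 and NCOA4 below 0 in both lines under all 3, while in SKNAS the intervals of SLC11A2, IREB2, ACO1 and HMOX1 reach 0 under at least 1 of them.

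Because a ratio of 2 genes within a library does not depend on how the library is scaled, the ferritin chains were also compared directly. FTH1 to FTL ran from 1.52 through 2.84 to 3.38 in SHEP MYC-OFF and from 0.795 through 0.914 to 1.11 in SHEP MYC-ON, without overlap. In SKNAS it ran from 1.52 through 1.69 to 2.37 in MYC-OFF and from 0.435 through 0.488 to 0.672 in MYC-ON, again without overlap. FTH1 exceeded FTL in 28 of 28 SHEP and 14 of 14 SKNAS MYC-OFF libraries, but in 8 of 28 SHEP and 0 of 13 SKNAS MYC-ON libraries. The mean log2 difference between pairs was -1.49 ± 0.35 (SD, n = 28 pairs) in SHEP, lower in 28 of 28 pairs (two-sided sign-flip permutation p = 1e-05, the smallest the draws can give, adjusted p = 3e-05 over 6 tests). In SKNAS it was -1.78 ± 0.32 (SD, n = 13 pairs), lower in 13 of 13 pairs (exact two-sided sign-flip permutation p = 0.000244, the smallest possible, adjusted p = 0.000366). Pairs of 1 series share an experiment, so these p-values measure the spread between time points.

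**Figure D3:**
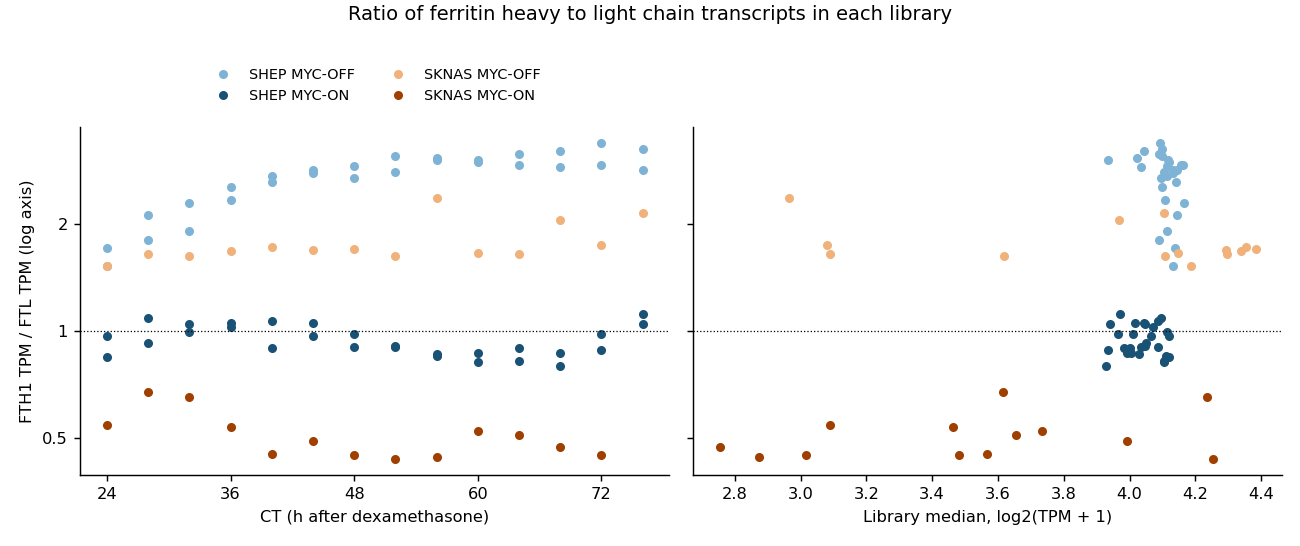
Ratio of FTH1 to FTL TPM (log axis) in each library against CT (left) and against the library median (right), with a dotted line at 1. MYC-ON libraries lie below the MYC-OFF libraries of their line at every CT, and in SKNAS the ratio stays between 0.435 and 0.672 in MYC-ON over the whole range of library medians.

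The ratio of TFRC to FTH1, uptake against storage, was higher in MYC-ON in 28 of 28 SHEP pairs and in 13 of 13 SKNAS pairs. It ran from 0.020 to 0.040 in SHEP MYC-OFF and from 0.037 to 0.134 in MYC-ON, and the mean log2 difference was 1.47 ± 0.37 (SD, n = 28 pairs, permutation p = 1e-05, adjusted p = 3e-05). In SKNAS it ran from 0.011 to 0.070 and from 0.062 to 0.559, with a mean log2 difference of 1.82 ± 1.26 (SD, n = 13 pairs, exact permutation p = 0.000244, adjusted p = 0.000366). The groups overlapped at their edges in both lines. In SKNAS this ratio still varied with the library median, although scaling cancels in it. Its lowest and highest MYC-OFF values, 0.011 and 0.070, came at library medians of 3.09 and 4.38. Those of MYC-ON, 0.062 and 0.559, came at medians of 2.76 and 4.25. IREB2 to ACO1, the ratio of the sensors, differed by 0.04 ± 0.22 in SHEP (SD, n = 28 pairs, permutation p = 0.401, adjusted p = 0.401) and by -0.22 ± 0.45 in SKNAS (SD, n = 13 pairs, exact permutation p = 0.0986, adjusted p = 0.118). Neither difference exceeded the spread between pairs. The sensor ratio in SKNAS MYC-ON was lowest, at 0.688, in a library of median 3.09 and highest, at 1.32, in one of median 4.24. In the 2 SKNAS pairs with both library medians of at least 3.8 the mean log2 differences were 2.36 for TFRC to FTH1 and 0.031 for IREB2 to ACO1. What part the unequal library medians of the 2 conditions have in the SKNAS differences of both ratios was not tested.

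NCOA4, the receptor that takes ferritin to the lysosome, ran from 54.6 through 60.01 to 64.8 TPM in SHEP MYC-OFF and from 40.5 through 51.4 to 60.2 TPM in MYC-ON. It was lower in 28 of 28 pairs, with 20 MYC-ON libraries under every MYC-OFF library, at a log2 change of -0.22 ± 0.03 (SE, adjusted p = 6.80e-08, limma). With the library median as a covariate the SHEP change was -0.11 and under the required 0.15. In SKNAS NCOA4 was at 34.98, 107 and 136 TPM in MYC-OFF and at 14.6, 40.1 and 78.2 TPM in MYC-ON, overlapping, with 11 of 13 pairs lower. The SKNAS change of -1.24 ± 0.21 (SE, adjusted p = 0.000167, limma) was -0.88 after rescaling and -0.76 with the covariate. In the SKNAS libraries of median at least 3.8 it was -0.70 and missed the threshold (adjusted p = 0.137, limma), while 93.8 TPM in the lowest MYC-OFF library stood above 78.2 TPM in the highest MYC-ON library.

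The sensors showed no change that held in both lines. IREB2 (IRP2) was at 15.6, 24.1 and 31.4 TPM in SHEP MYC-OFF and at 16.1, 23.7 and 28.01 TPM in MYC-ON, with a log2 change of -0.08 (95% interval -0.18 to 0.03, adjusted p = 0.201, limma). With the library median as a covariate it turned to 0.16 and passed the test. In SKNAS IREB2 ran from 8.34 through 30.6 to 49.0 TPM and from 6.79 through 14.1 to 40.9 TPM, a log2 change of -0.77 ± 0.28 (SE, adjusted p = 0.0312, limma). That call was lost with the covariate, at -0.08 (adjusted p = 0.479, limma), and without the filter (adjusted p = 0.0716, limma).

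ACO1, which is a cytosolic aconitase when it holds its iron-sulfur cluster and IRP1 when it does not, ran from 74.3 through 88.1 to 94.9 TPM in SHEP MYC-OFF and from 65.0 through 81.7 to 94.0 TPM in MYC-ON. It was lower in 24 of 28 pairs, but the log2 change of -0.11 (95% interval -0.17 to -0.05) lay under the required 0.15. In SKNAS ACO1 ran from 10.97 through 32.5 to 37.2 TPM and from 9.09 through 16.9 to 32.2 TPM, a log2 change of -0.56 ± 0.20 (SE, adjusted p = 0.028, limma) that was -0.08 with the covariate (adjusted p = 0.242, limma). Both sensors moved with the library median in SKNAS (r = 0.98 for IREB2 and 0.991 for ACO1 over 27 libraries).

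HMOX1, the heme oxygenase that frees iron from heme, was at 22.5, 29.2 and 37.8 TPM in SHEP MYC-OFF and at 22.2, 30.4 and 40.8 TPM in MYC-ON. It was higher in 14 and lower in 14 of 28 pairs, with a log2 change of 0.03 (95% interval -0.06 to 0.13, adjusted p = 0.521, limma). SKNAS held less, from 0.958 through 7.70 to 9.48 TPM in MYC-OFF and from 2.42 through 4.81 to 8.15 TPM in MYC-ON, and the log2 change was -0.31 (95% interval -0.75 to 0.13, adjusted p = 0.22, limma). HMOX1 thus passed the test in neither line.

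SLC40A1, the iron exporter and the third member with a 5′ hairpin, was barely detected, and its mean under 1 TPM in both lines kept it out of the filtered test. It ran from 0.347 through 0.841 to 2.09 TPM in SHEP MYC-OFF and from 0.091 through 0.367 to 0.963 TPM in MYC-ON, lower in 25 of 28 pairs. In SKNAS it reached at most 0.594 TPM in MYC-OFF and 0.158 TPM in MYC-ON, and was listed at 0 in 1 of 14 and 4 of 13 libraries. Without the filter on low values it was called lower in both lines, at -0.46 ± 0.07 in SHEP (SE, adjusted p = 5.55e-08, limma) and -0.29 ± 0.05 in SKNAS (SE, adjusted p = 0.000422, limma) on the log2(TPM + 1) scale.

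Ferritin genes have many processed copies in the genome, which could share reads with them. The 24 entries named as FTH1 copies summed to at most 17.7 TPM in any library, at most 0.593% of FTH1 and copies together, and the 16 FTL copies to at most 2.49 TPM. These totals come from the same quantification as the parent values. Whether reads of the copies were counted under FTH1 or FTL was therefore not tested.

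The lines also differed without 4OHT, though line, experiment and library quality cannot be told apart in that comparison. In MYC-OFF 8 of the 9 tested members passed the test between SKNAS and SHEP (7 lower and 1 higher in SKNAS), as did 78.6% of 14926 genes. STEAP3 was lower in SKNAS by a log2 difference of -3.36 ± 0.17 (SE, adjusted p = 5.52e-18, limma) and HMOX1 by -2.03 ± 0.12 (SE, adjusted p = 8.35e-16, limma). For ACO1 the difference was -1.67, for FTH1 -1.37, for SLC11A2 -1.06, for TFRC -1.04 and for FTL -0.78, and all 5 passed the same test. NCOA4 was the exception at 0.58 ± 0.12 (SE, adjusted p = 3.93e-05, limma). IREB2 differed by 0.13 (95% interval -0.20 to 0.47), and by 0.62 in the SKNAS libraries of median at least 3.8, past the test.

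In SHEP MYC-OFF the order of medians was FTH1, FTL, TFRC, STEAP3, ACO1, NCOA4, HMOX1, SLC11A2, IREB2 and SLC40A1. The ranges of HMOX1, SLC11A2 and IREB2 overlapped, so their order was within the spread. TFRC and STEAP3 touched at their edges (lowest TFRC 175 TPM, highest STEAP3 182 TPM), and the other neighbours had ranges that did not overlap. In SHEP MYC-ON FTL and FTH1 overlapped, and STEAP3 had fallen under ACO1 and NCOA4 by its median.

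The change with N-MYC itself was compared between the lines in 1 fit, where 5 of 9 members passed, against 51.5% of 14870 genes. That fit took 1 residual spread for both lines, although SKNAS scattered more for most members. Its SE was 0.14 for NCOA4 and for HMOX1, against 0.21 for each in SKNAS alone. For such members the SE, interval and p-value of the difference are too small. For FTH1 the SE was 0.10, against 0.09 in SKNAS alone. The 5 were NCOA4, IREB2, ACO1, FTH1 and HMOX1, each with the lower change in SKNAS. That direction was also the common one over all genes, with 1993 called higher and 5666 lower and a median difference of -0.22. After rescaling the all-gene median difference was 0.01. The difference of log2 changes (SKNAS minus SHEP) was -1.03 ± 0.14 for NCOA4 (SE, adjusted p = 6.31e-09, limma) and -0.45 ± 0.10 for FTH1 (SE, adjusted p = 0.000116, limma). NCOA4 stayed past the test after rescaling (-0.75) and with the covariate (-0.62). FTH1 was at -0.16 after rescaling and not past it (adjusted p = 0.385, limma). With the covariate IREB2 (-0.10) and ACO1 (-0.06) were no longer called, and HMOX1 was lost under both. For TFRC the difference was -0.10 (95% interval -0.44 to 0.25), for FTL -0.16 (95% interval -0.41 to 0.09) and for STEAP3 0.12 (95% interval -0.32 to 0.55). TFRC, STEAP3 and SLC11A2 passed with the covariate, at 0.46, 0.69 and 0.40.

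Over the time course, slopes were called mostly in SHEP MYC-ON, for the members as for all genes. There 7 of 9 had a slope with an adjusted p of at most 0.05, against 57.2% of all genes, and in SHEP MYC-OFF 3 of 9 did, against 16.2%. STEAP3 in SHEP MYC-ON was at 64.4 and 65.3 TPM in the 2 series at CT24 and at 32.5 and 37.9 TPM at CT48. It was lowest on average at CT72, at 16.1 and 20.9 TPM, and stood at 22.4 and 24.9 TPM at CT76. Its slope was -0.88 ± 0.06 log2 per 24 h (SE, adjusted p = 5.57e-13, limma), against -0.11 ± 0.03 in MYC-OFF. The gap between conditions was therefore already present at CT24, where MYC-OFF held 137 and 145 TPM, and widened afterwards. The difference of the slopes was -0.77 ± 0.07 (SE, adjusted p = 1.31e-13, limma).

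FTL rose in SHEP MYC-ON from 2825 and 4020 TPM at CT24 to 6637 and 7344 TPM at CT76, while MYC-OFF went from 2723 and 3672 TPM to 2394 and 2438 TPM. Its slopes were 0.45 ± 0.04 in MYC-ON (SE, adjusted p = 7.00e-11, limma) and -0.10 ± 0.03 in MYC-OFF (SE, adjusted p = 0.0424, limma), and they differed by 0.55 ± 0.05 (SE, adjusted p = 1.01e-12, limma). The small MYC-OFF slope of FTL was 0.0032 without series 1 and was not called there. At CT24 the FTL ranges of the 2 conditions still overlapped. FTH1 rose in both, by 0.39 ± 0.05 per 24 h in MYC-ON (SE, adjusted p = 4.44e-07, limma) and 0.26 ± 0.03 in MYC-OFF (SE, adjusted p = 1.41e-06, limma). In MYC-ON the rise was not steady in both series. The lower and higher FTH1 values there were 3919 and 5136 TPM at CT60 and 3909 and 7093 TPM at CT72. At CT76 they were 7385 and 7692 TPM. The FTH1 slopes differed by 0.13 (95% interval -0.0001 to 0.26, adjusted p = 0.0991, limma), which did not pass.

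**Figure D4:**
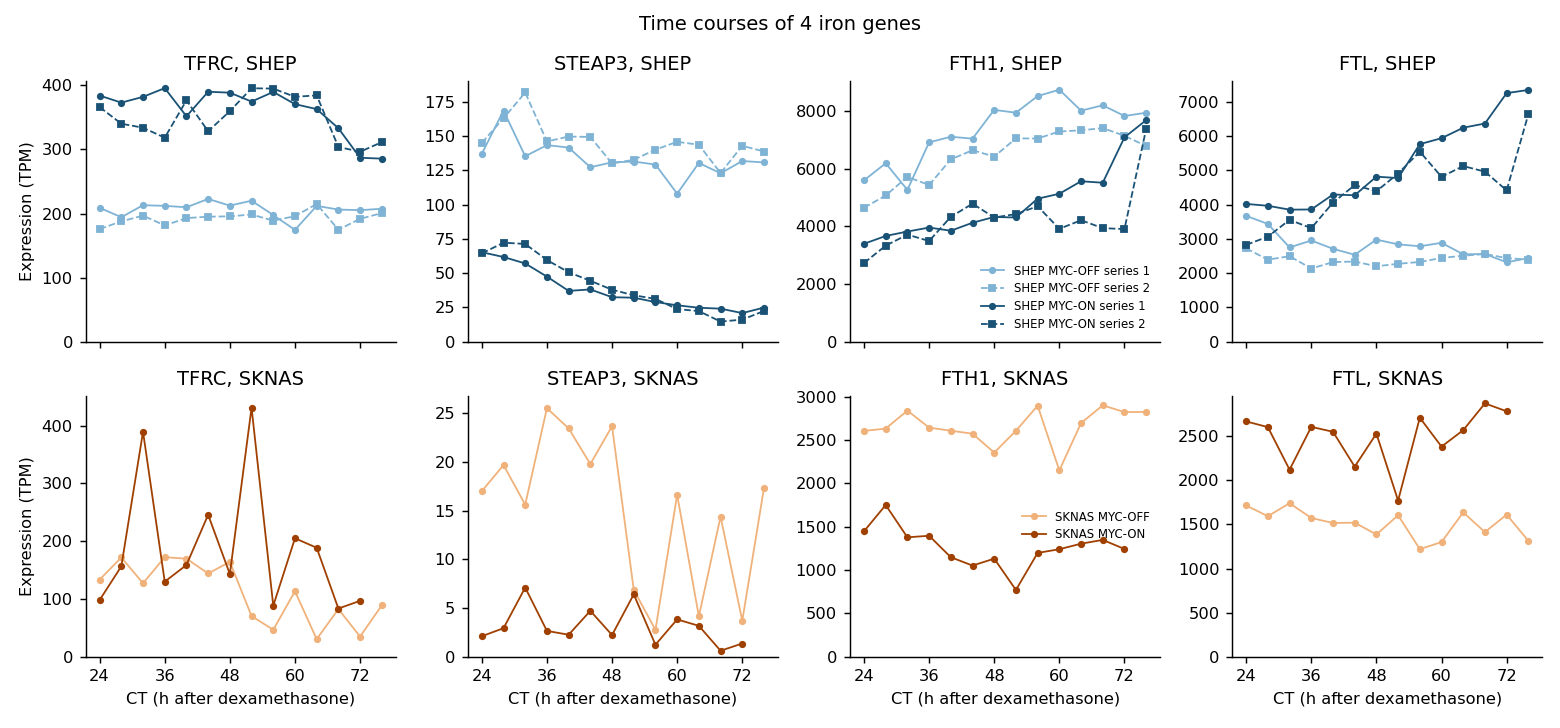
TPM of TFRC, STEAP3, FTH1 and FTL (linear axes from 0) against CT in SHEP, with both series drawn, and in SKNAS, with its 1 series. In SHEP MYC-ON STEAP3 falls to 16.1 and 20.9 TPM at CT72 and is at 22.4 and 24.9 TPM at CT76. FTL there climbs to 6637 and 7344 TPM by CT76, while in SKNAS TFRC jumps between neighbouring time points.

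Smaller slopes in SHEP MYC-ON were 0.13 for SLC11A2, -0.15 for IREB2, -0.10 for TFRC and -0.10 for NCOA4. With the library median as a covariate the last 3 turned to 0.05, 0.02 and 0.01 and were not called. TFRC and NCOA4 also had slopes that differed between conditions, each by -0.11, among 4 of 9 members and 43.4% of all genes. After rescaling neither difference passed (adjusted p = 0.0734 for TFRC and 0.0908 for NCOA4, limma). In SKNAS no member had a slope that passed in either condition, with slopes from -0.85 to 0.03 in MYC-OFF and from -0.51 to 0.06 in MYC-ON, and no slope difference passed. The shares of all genes were 0% (0 of 13886, with 5086 genes and 5 members at an unadjusted p under 0.05), 0.0864% and 0.0864%, so a single SKNAS series gave few calls for any gene. In SKNAS MYC-OFF the median slope was -0.47 over the members and -0.31 over all genes. With the library median as a covariate these medians were -0.0006 and -0.0014.

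A rhythm of 24 h was asked of each gene because the cultures had been synchronised. No member passed in any group, with amplitudes of 0.01 to 0.13 on the log2 scale in SHEP and 0.03 to 0.32 in SKNAS. In SHEP MYC-ON STEAP3 (p = 0.0269, limma) and ACO1 (p = 0.0281, limma) were under an unadjusted p of 0.05, with adjusted p of 0.423 and 0.425. The background was as low, at 0.0975% of SHEP MYC-OFF genes, 0.0139% for SHEP MYC-ON and 0% in both SKNAS groups (58 and 37 genes at an unadjusted p under 0.05). No gene differed in its rhythm between conditions (0% in both lines, with 691 SHEP and 69 SKNAS genes at an unadjusted p under 0.05).

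For TFRC, FTH1 and HMOX1 the 3 genes with the most similar course over the 56 SHEP libraries were found among 14353 candidates, after removing the mean of each series and condition. TFRC was most like KLHL9 (r = 0.841), DNAJC13 (r = 0.815) and YAP1 (r = 0.815), whose r over the 27 SKNAS libraries was 0.959, 0.973 and 0.989. FTH1 was most like RPS16 (r = 0.886), RACK1 (r = 0.885) and GAA (r = 0.881), with SKNAS values of 0.49, -0.036 and -0.139. HMOX1 was most like STOML2 (r = 0.652), OXLD1 (r = 0.642) and LRRC29 (r = 0.603), with SKNAS values of 0.596, -0.149 and 0.394. The libraries of a line share scaling and experiment, and 7 of the 10 members had an r of 0.808 or more with the library median in SKNAS.

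Beyond the members, 78 other genes of iron handling were examined as lists. Of 67 tested in SHEP, 31 were higher and 18 lower in MYC-ON (46.3% and 26.9%), with a median log2 change of 0.14 against -0.04 over all genes. Of 63 tested in SKNAS, 19 were higher and 22 lower (30.2% and 34.9%), with a median of -0.07 against -0.29 over all genes. After rescaling SKNAS gave 26 higher and 11 lower, and with the covariate 24 and 13. These and the counts below stand beside all-gene shares of 33% higher and 38.9% lower in SHEP, and in SKNAS of 13.9% and 34.2% as deposited, 27.6% and 23.9% in the rescaled fit, and 28.3% and 25.9% in the covariate fit. Called in both lines were 32 of the 62 genes tested in both, with 15 higher in both, 13 lower in both and 4 in opposite directions. Of the 12306 genes tested in both lines 38.5% were called in both, with 11.6% higher in both, 24.1% lower in both and 2.76% in opposite directions.

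Iron-sulfur clusters are the main use of mitochondrial iron beside heme. Of 26 tested genes that assemble them, 16 were higher and 5 lower in SHEP (median log2 change 0.31), and 10 were higher and 7 lower in SKNAS (median 0.08), or 14 and 1 after rescaling. The covariate gave 12 and 4. MMS19, which hands clusters to cytosolic and nuclear proteins, rose from 43.8 ± 2.8 to 77.4 ± 6.7 TPM in SHEP (SD, n = 28 each) and from 43.2 ± 7.5 to 79.3 ± 16.5 TPM in SKNAS (SD, n = 14 and 13). Its log2 changes were 0.81 and 0.84, the latter 1.21 after rescaling and 0.79 with the covariate. BOLA3 changed by 0.74 in SHEP and 0.77 in SKNAS, and the cochaperone HSCB by 0.75 and 0.68. Chosen after their values were seen, NFS1 (0.31 and -0.35), CIAO3 (0.32 and -0.85) and the heme-sensing repressor BACH1 (0.40 and -0.79) were among the genes called in opposite directions as deposited. The SKNAS change of CIAO3 was -0.50 after rescaling and -0.68 with the covariate, past the test both times. That of NFS1 was 0.017 and -0.091 and that of BACH1 -0.47 and -0.07, none of them called, and neither gene was called in SKNAS without the filter (adjusted p = 0.0581 and 0.0948, limma).

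Of 16 genes of import and trafficking, 6 of 13 tested were higher and 3 lower in SHEP, and 4 of 12 higher and 2 lower in SKNAS, or 5 and 2 after rescaling. The covariate gave 7 and 2. STEAP1, of the same family as STEAP3, moved opposite to it, from 22.6 ± 2.5 to 48.6 ± 8.2 TPM in SHEP (SD, n = 28 each) and from 3.20 ± 0.92 to 18.3 ± 4.9 TPM in SKNAS (SD, n = 14 and 13). CYBRD1, another ferrireductase, was lower with log2 changes of -1.21 and -1.07, and LRP1, the receptor for heme bound to hemopexin, with -1.38 and -1.36. Rescaled and with the covariate the SKNAS changes were -0.74 and -0.50 for CYBRD1 and -1.02 and -0.90 for LRP1, all past the test.

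Heme genes were divided, with 6 higher and 5 lower of 16 tested in SHEP and 4 higher and 6 lower of 14 tested in SKNAS (5 and 3 rescaled, 4 and 4 by the covariate fit). ALAD, which makes porphobilinogen, was lower with log2 changes of -0.87 and -1.20, and BLVRB, which reduces biliverdin, with -0.65 and -0.62. In SKNAS the ALAD change was -0.88 after rescaling and -0.54 with the covariate, both called. That of BLVRB was -0.25 after rescaling and not called, and -0.66 with the covariate. Among 4 regulators, HIF1A had log2 changes of -0.45 in SHEP and -1.56 in SKNAS, with 2 higher and 1 lower in SHEP and 1 higher and 2 lower in SKNAS (1 and 1 after rescaling or with the covariate). The SKNAS change of HIF1A was -1.20 rescaled and -0.86 with the covariate, both called. Of 6 tested genes of IRP turnover or with a known hairpin, 0 were higher and 3 lower in SHEP, and 0 higher and 4 lower in SKNAS, where rescaling gave 1 and 3 and the covariate 0 and 1. They include EPAS1, a hypoxia factor (-0.36 and -1.73), and FBXL5, which targets IRP2 for degradation (-0.09, not called, and -0.74). With the covariate the SKNAS changes of these were -1.12, called, and -0.19, not called. Of 8 genes of export and the hepcidin axis, 2 were expressed highly enough to test in SHEP (1 higher, 1 lower) and 1 in SKNAS (lower), and the mitochondrial ferritin FTMT was tested in neither.

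**Figure D5:**
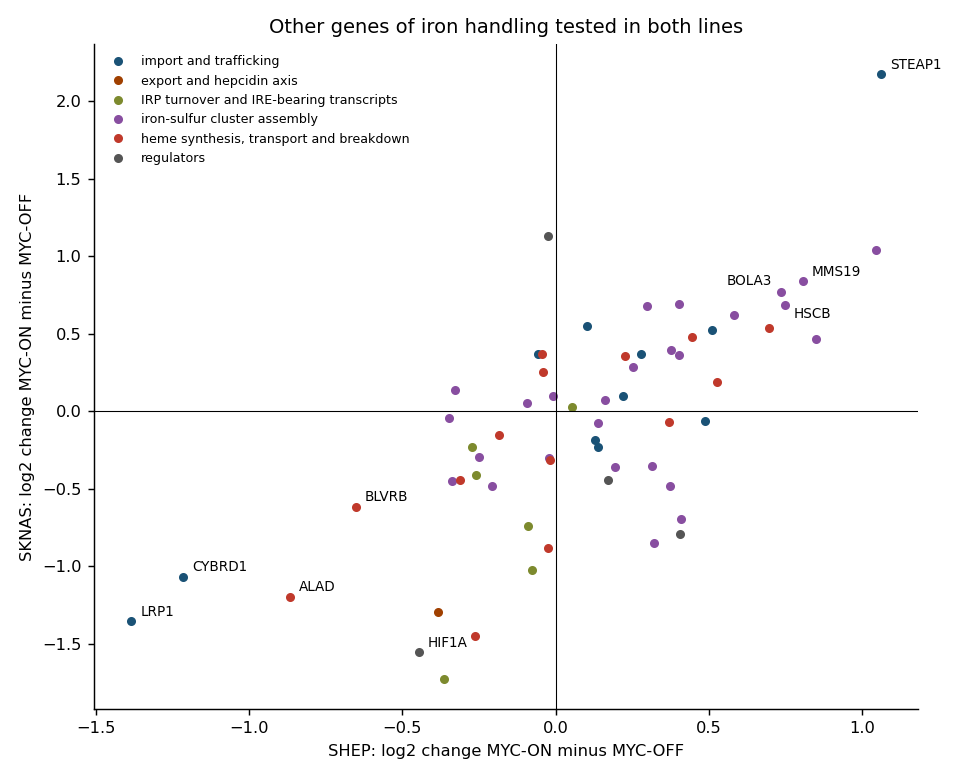
Log2 change from MYC-OFF to MYC-ON (log2(TPM + 1), as deposited) in SHEP (horizontal) and SKNAS (vertical) for the 62 other iron genes tested in both lines, coloured by list, with those named in the text by rule labelled. STEAP1 (1.06 and 2.17) lies farthest up and LRP1 (-1.38 and -1.36) farthest to the left.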

How the data were processed

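Poly-A RNA of 83 libraries had been sequenced. Per the labels, the authors quantified reads with Salmon 1.3.0 against GRCh38 and deposited TPM per gene, so scaling for depth and length was done before deposit and counts were not used here. Log2(TPM + 1) was fitted with limma 3.58.1 (R 4.3.3, empirical Bayes with trend) on genes with a mean of at least 1 TPM, CT as a factor, and p-values were adjusted by Benjamini-Hochberg over all genes tested. Time slopes, a 24 h cosine and sine, and their differences were fitted likewise, with adjusted p of at most 0.05. Ratios were tested by sign flips over same-CT pairs (exact for 13 pairs, 100000 draws for 28). Fits were tested on simulated data. In a simulation of the SHEP comparison on 14362 genes, 94% of 200 changed genes were recovered. Its noise was drawn independently for each library, so likeness between libraries of a series or of neighbouring times was not covered. Members and lists were chosen with earlier results of these data known. Named list genes are the 5 per direction with the largest smaller change among those called the same way in both lines, except items not reported here. No 2 libraries were duplicates. Libraries of 1 series come from 1 experiment, so p-values measure the spread between libraries and time points. Coordinates and hairpins come from the Gencode 44 annotation and promoters from RefSeq, all on GRCh38. Alternatives were another pseudocount, no filter, median-of-ratios rescaling, the library median as a covariate, SKNAS libraries of median at least 3.8, a replicate block and leaving out a SHEP series.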

Additional observations from a re-analysis of the deposited data

Results flagged for a closer look

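The change with N-MYC differed between the lines for 5 members in a test of the difference itself (SKNAS minus SHEP, log2 scale, limma): -1.03 for NCOA4, -0.70 for IREB2, -0.45 for ACO1, -0.45 for FTH1 and -0.35 for HMOX1, with adjusted p of 6.31e-09, 0.0019, 0.00239, 0.000116 and 0.0356. In SKNAS 10 of 13 MYC-ON and 4 of 14 MYC-OFF libraries had a median below 3.8, and with the library median as a covariate NCOA4 and FTH1 stayed called, at -0.62 and -0.55. NCOA4, ACO1 and IREB2 passed after rescaling. The fit took 1 residual spread for both lines, so the p-values of NCOA4, IREB2, ACO1 and HMOX1, which scattered more in SKNAS, are too small. Of the 14870 genes tested 1993 were called with the higher and 5666 with the lower change in SKNAS.

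In SHEP the slope over culture time differed between MYC-ON and MYC-OFF for 4 members (MYC-ON minus MYC-OFF, log2 per 24 h, limma): -0.77 for STEAP3, 0.55 for FTL, -0.11 for NCOA4 and -0.11 for TFRC, with adjusted p of 1.31e-13, 1.01e-12, 0.0303 and 0.0358. STEAP3 and FTL passed after rescaling and with the covariate as well, and NCOA4 and TFRC passed under neither.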

How the results depend on the processing

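In SHEP, TFRC, FTL, FTH1 and STEAP3 kept direction and call under every alternative run. In SKNAS libraries with a median of at least 3.8 (10 MYC-OFF, 3 MYC-ON), 712 genes and 2 members (TFRC and FTH1) were called, and 2 pairs gave ratio differences of -1.56 (FTH1 to FTL), 2.36 (TFRC to FTH1) and 0.031 (IREB2 to ACO1), where p cannot go below 0.5. Rescaling changed the SKNAS split from 1925 higher and 4751 lower genes to 3829 and 3319 (median of all genes from -0.29 to 0.03), and the split of the difference between lines from 1993 and 5666 to 3801 and 3655, with 3 members called. It changed the split of SHEP MYC-OFF slopes from 836 higher and 1495 lower to 1164 and 1107, and that of SHEP MYC-ON slopes from 2871 and 5345 to 3851 and 4260. The split between lines in MYC-OFF, 4793 higher and 6933 lower, was 6494 and 5754 in the SKNAS libraries of median at least 3.8. After rescaling the SKNAS change was 0.021 for HMOX1 and 0.34 for SLC11A2, and the difference between lines was 0.19 for TFRC, 0.13 for FTL and 0.17 for SLC11A2. With the covariate the SHEP change was -0.029 for HMOX1 and 0.16 for IREB2, the SKNAS change was 0.058 for HMOX1 and 0.59 for SLC11A2 (0.43 in the libraries of median at least 3.8), and the difference between lines was 0.46 for TFRC and 0.40 for SLC11A2. SHEP MYC-ON slopes with it were 0.025 for TFRC, 0.051 for IREB2 and 0.011 for NCOA4. A pseudocount of 0.1 turned the difference between lines of STEAP3 to -0.18. The cause of these changes was not tested. Genes with a SKNAS slope numbered 6 (MYC-OFF, rescaled), 14 (MYC-OFF, covariate) and 161 (MYC-ON, covariate), and 126 genes had a slope difference with the covariate. Without a trend term 5 SHEP MYC-OFF and 0 SHEP MYC-ON genes were rhythmic, and a fit of SKNAS rhythms with the covariate, chosen after seeing the data, called 0 genes (260 and 455 at an unadjusted p under 0.05, limma).

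Leaving out 1 SHEP series (fewer samples) gave 4582 to 4750 genes and 2 to 4 members for the difference between lines, 337 to 1817 genes and 1 to 2 members for SHEP MYC-OFF slopes, and 4 to 7 members for SHEP MYC-ON slopes. The lower counts came without series 1, apart from the 4582 genes without series 2. Changes ran from -0.0084 to 0.076 for HMOX1 and from -0.17 to 0.019 for IREB2, slopes from -0.21 to 0.0032 for FTL in MYC-OFF and from -0.023 to 0.081 for ACO1 in MYC-ON, and IREB2 to ACO1 from -0.0028 to 0.074. A replicate block on the SHEP series left 5 members called among 10378 genes, and its number is shared by only 2 series (r = 0.489 between their deviations in MYC-OFF and MYC-ON). With no replicate block 1878 genes had a SHEP MYC-OFF slope, and that of FTL was lost (adjusted p = 0.159). Of the single-gene values under alternatives, 352 kept direction and call, 47 lost the call, 16 gained it and 20 changed sign. Depth per library is unknown, and SKNAS had 1 series.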
